A study of Homo sapiens with 2 samples.

Results

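The JAMM/MPN domain genes described here were PSMD14 and 9 relatives, namely COPS5, COPS6, STAMBP, STAMBPL1, BRCC3, MYSM1, EIF3H, EIF3F and PRPF8. They were taken by gene symbol from the deposited gene table, with PSMD7 left aside, and all 10 were found among the 58174 genes listed. All 10 also averaged at least 1 TPM, a length-corrected relative transcript level, across the libraries, as did 15008 genes in all. Transcript levels were measured by RNA sequencing in PC3, an established human prostate cancer cell line. The 2 libraries came from cells given a control siRNA and from cells given an siRNA that targets POH1, the protein encoded by PSMD14. The siRNA sequences, dose and time after transfection are not stated in the labels. With 1 library per group there is no replicate error, so no test was run, and all comparisons are between single libraries.

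The MPN domain is a protein fold shared by subunits of several large complexes. In some members it carries a JAMM motif, in which histidine and aspartate residues hold a zinc ion that cuts ubiquitin, or a ubiquitin-like protein, from its target. Other members have lost the motif and serve as structural partners. PSMD14 cuts ubiquitin chains from substrates as they enter the proteasome, COPS5 removes NEDD8 from cullins in the COP9 signalosome, and STAMBP and STAMBPL1 act on ubiquitinated cargo at endosomes. BRCC3 works in the BRISC and BRCA1-A complexes, and MYSM1 removes ubiquitin from a core histone. COPS6, EIF3F, EIF3H and PRPF8 are known as members without the zinc site.

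The coding sequences separate the list in this way. A pattern of 14 residues was searched in the translated coding sequence of 1 annotated transcript for each of 19529 genes in GENCODE release 29. It was a histidine, 1 residue, a histidine, 7 residues, a serine, 2 residues and an aspartate. It was found in 44 genes (0.225%), among them 6 of the 10 members. ABRAXAS2, a gene of the family outside the list, also held this pattern, at residues 57 to 70. When the residue between the histidines had to be serine or threonine and the residue after the second histidine proline, 7 genes (0.0358%) held it. These were the same 6 members and MPND, another gene of the family. The 4 members without the pattern were COPS6, EIF3H, EIF3F and PRPF8. The 42 bases that encode the pattern are shown for PSMD14 and 3 of the members that share it. The search fixed the marked residues, and its narrower form also fixed the proline and limited the residue between the histidines. That these stretches share the site thus follows from the search, and only their codons and the other bases can be compared. Capitals mark the 4 codons for the histidines, the serine and the aspartate.
PSMD14: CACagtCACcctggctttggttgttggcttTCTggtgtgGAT
STAMBP: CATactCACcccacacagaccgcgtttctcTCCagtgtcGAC
STAMBPL1: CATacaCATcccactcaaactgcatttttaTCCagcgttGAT
BRCC3: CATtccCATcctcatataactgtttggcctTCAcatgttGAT

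The stretch lies at residues 113 to 126 of the 310 residues of PSMD14, 335 to 348 of 424 in STAMBP, 347 to 360 of 436 in STAMBPL1 and 122 to 135 of 317 in BRCC3. In COPS5 it lies at residues 138 to 151 of 334. STAMBP and STAMBPL1 were the most alike of these 4 stretches, with 31 of 42 bases identical (73.8%). PSMD14 shared 23 of 42 bases with BRCC3 and 18 with STAMBPL1.

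The levels of the members spanned a wide range, and TPM values, which are divided by transcript length, allow them to be compared between genes. In the control library EIF3H was highest at 232 TPM, followed by COPS6 at 218 TPM, PRPF8 at 95.97 TPM, EIF3F at 73.7 TPM and COPS5 at 72.4 TPM. PSMD14 was sixth at 50.9 TPM. STAMBP was at 18.9 TPM, STAMBPL1 at 6.34 TPM, BRCC3 at 6.19 TPM and MYSM1 at 3.001 TPM. The 6 members with the JAMM pattern thus ran from 3.001 to 72.4 TPM in the control library, below the 73.7 to 232 TPM of the 4 without it. In the POH1 siRNA library the ranges were 2.74 to 77.0 and 75.6 to 178 TPM and overlapped, with COPS5 just above EIF3F. Genes of the family outside the list were not split in this way. With the control siRNA, ABRAXAS1 (0.991 TPM) and ABRAXAS2 (7.63 TPM), which lack the narrower pattern, lay below MPND (13.8 TPM), which holds it. The median of all 15008 genes was 11.1 TPM with the control siRNA and 11.6 TPM with the POH1 siRNA. In the order of the members, EIF3H and COPS6, EIF3F and COPS5, and STAMBPL1 and BRCC3 changed places between the libraries, and without replicates it cannot be said which neighbours in that order differ.

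**Figure D1:**
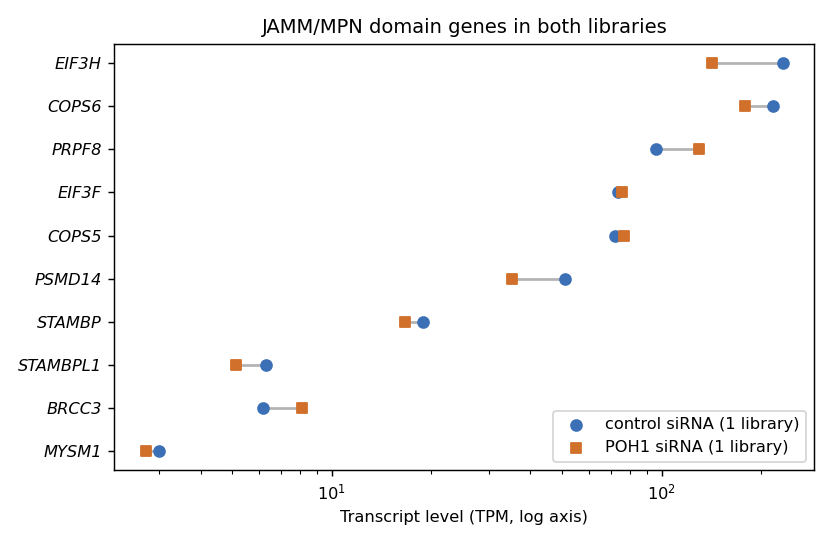
Transcript level of each member on a log axis in TPM, with a circle for the control siRNA library and a square for the POH1 siRNA library, 1 library each. EIF3H and PSMD14 lie to the left in the POH1 siRNA library (142 and 35.1 TPM), and PRPF8 and BRCC3 to the right (130 and 8.12 TPM).

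The differences between the libraries were small for most members. A difference is log2(TPM + 1) with the POH1 siRNA less log2(TPM + 1) with the control siRNA, and a gene was counted as lower or higher at 1.5-fold on this scale. Of the 10 members, 1 was lower, none was higher and 9 lay within 1.5-fold. Among all 15008 genes, 8.88% were lower and 10.2% were higher, so the members' counts are near the background. The counts given below for the partner lists are to be read beside the same shares. Scaling the libraries to a median ratio of 1 lowers every difference by up to 0.14. EIF3H and PSMD14, 2 of the 10 members, are then counted as lower, beside 12.3% of all genes. COPS5 and EIF3F move from just above 0 to just below it. As deposited, the members' median difference was -0.14, against 0.12 for all genes. Of the 10 members, 8 lay below the median of all genes. After adjustment for the GC content of the transcripts, described further on, the members' median was 0.11, against 0.15 for all genes. The 6 members with the JAMM pattern had a median of -0.14 and the 4 without it one of -0.13.

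PSMD14, the gene targeted by the siRNA, was at 50.9 TPM with the control siRNA and 35.1 TPM with the POH1 siRNA. It was thus 1.45-fold lower, with 69.0% of the control level left and a log2 difference of -0.52, just short of the 1.5-fold used for counting (-0.66, past it, when scaled to a median ratio of 1). A difference at or below this was seen in 10.7% of all genes, and among the members in EIF3H alone. PSMD14-DT, a noncoding gene that overlaps it on the opposite strand, and its 1 named pseudogene were listed at 0 in both libraries. The protein was not measured.

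The genes nearest to PSMD14 in level and difference were sought by the Euclidean distance on log2(TPM + 1) over the 2 libraries. They were SDHAF2 (50.2 and 35.004 TPM), SAR1A (50.05 and 35.1 TPM), JKAMP (53.2 and 34.2 TPM), SPCS1 (53.6 and 36.1 TPM) and ZNHIT3 (49.6 and 37.0 TPM). Their log2 differences ran from -0.62 to -0.41. SAR1A encodes a GTPase of transport vesicles that leave the endoplasmic reticulum, and SPCS1 a subunit of signal peptidase. With 2 libraries, such likeness holds for any gene of similar level and fold.

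As deposited, neither PSMD14 nor any of the 7 other genes listed here for the proteasome lid was counted as lower. PSMD7, left aside here, was not among them. Of 7 other lid genes, 1 was higher, none was lower and 6 lay within 1.5-fold, with a median of 0.11. PSMD11 was 1.76-fold higher (53.0 and 93.4 TPM), and PSMD3 was at 201 and 280 TPM. At the other end were SEM1 (201 and 154 TPM, log2 difference -0.38) and PSMD12 (21.8 and 22.3 TPM). PSMD14 had the lowest difference of these 8 genes. It was also far below several of them in level, at 50.9 TPM in the control library beside 391 TPM for PSMD8 and 237 TPM for PSMD13, both named after their values were seen.

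In the COP9 signalosome the catalytic gene and its MPN partner lay within 1.5-fold, whereas 3 of the 8 other subunits were lower. COPS5 stood at 72.4 TPM with the control siRNA and 77.0 TPM with the POH1 siRNA, a log2 difference of 0.09. COPS6, which pairs with COPS5 at the core of the complex, was at 218 and 178 TPM. Its log2 difference was -0.29, and -0.35 after GC adjustment. The ratio of COPS5 to COPS6 was 0.332 in the control library and 0.433 in the POH1 siRNA library. Of the 8 other subunits, 3 were lower, none was higher and 5 lay within 1.5-fold. Their median was -0.31, but -0.050 after adjustment for GC content and -0.11 over the subunits averaging at least 5 TPM. COPS2, named after its values were seen, was 1.54-fold lower in TPM (5.23 and 3.40 TPM). It lay within 1.5-fold on the scale used (-0.50, and -0.12 after GC adjustment). COPS2 overlaps GALK2 on the opposite strand (20.6 and 12.7 TPM), and its value is uncertain unless the reads were counted by strand. CSPP1, which overlaps COPS5 on the opposite strand, had 6.31 and 3.23 TPM, a small amount beside COPS5.

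The 3 lower subunits were all lower by more than 2-fold, a size reached by 2.93% of all genes. COPS4 was 2.498-fold lower (33.9 and 13.6 TPM) and COPS8 2.25-fold lower (35.9 and 15.9 TPM). COPS7A, named here after its values were seen, was 2.11-fold lower (107 and 50.4 TPM). Its close paralogue COPS7B, likewise named after the fact, lay within 1.5-fold (66.6 and 67.7 TPM). GPS1 (165 and 194 TPM) and COPS9 (108 and 120 TPM) had the highest differences of the partners, at 0.24 and 0.15. Of the 10 subunit genes, members included, these 2 alone had a higher difference than COPS5.

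Both MPN genes of eIF3, the complex that brings the small ribosomal subunit to messenger RNA, were measured at high levels, and they differed from each other. EIF3H was at 232 TPM with the control siRNA and 142 TPM with the POH1 siRNA. It was 1.63-fold lower, a log2 difference of -0.70, and 6.51% of all genes were at or below it. EIF3H was the 1 member counted as lower. EIF3F was at 73.7 and 75.6 TPM, a log2 difference of 0.037. The ratio of EIF3H to EIF3F was 3.15 in the control library and 1.88 in the POH1 siRNA library, and this ratio within a library is not moved by scaling.

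EIF3F has 2 named pseudogenes, which together were listed at 19.0 and 22.2 TPM, so reads of near-identical copies could be split between them. With these added, EIF3F stood at 92.7 and 97.8 TPM, a log2 difference of 0.078. UTP23, which overlaps EIF3H on the opposite strand, had 4.61 and 6.43 TPM, a small amount beside EIF3H.

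Of the 11 other eIF3 genes, 2 were lower, none was higher and 9 lay within 1.5-fold (median 0.038). EIF3E was 2.47-fold lower (177 and 71.7 TPM), and EIF3M was 1.88-fold lower (59.7 and 31.7 TPM). EIF3J was at 12.01 and 17.96 TPM, within 1.5-fold on the scale used, and EIF3C at 229 and 263 TPM. EIF3C has a near-identical copy, EIF3CL, and the sum of both was 493 and 564 TPM. EIF3J overlaps SPG11 on the opposite strand (26.1 and 36.8 TPM), and its value is uncertain unless the reads were counted by strand. The sum over all 13 eIF3 genes was 3409 TPM with the control siRNA and 3381 TPM with the POH1 siRNA.

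**Figure D2:**
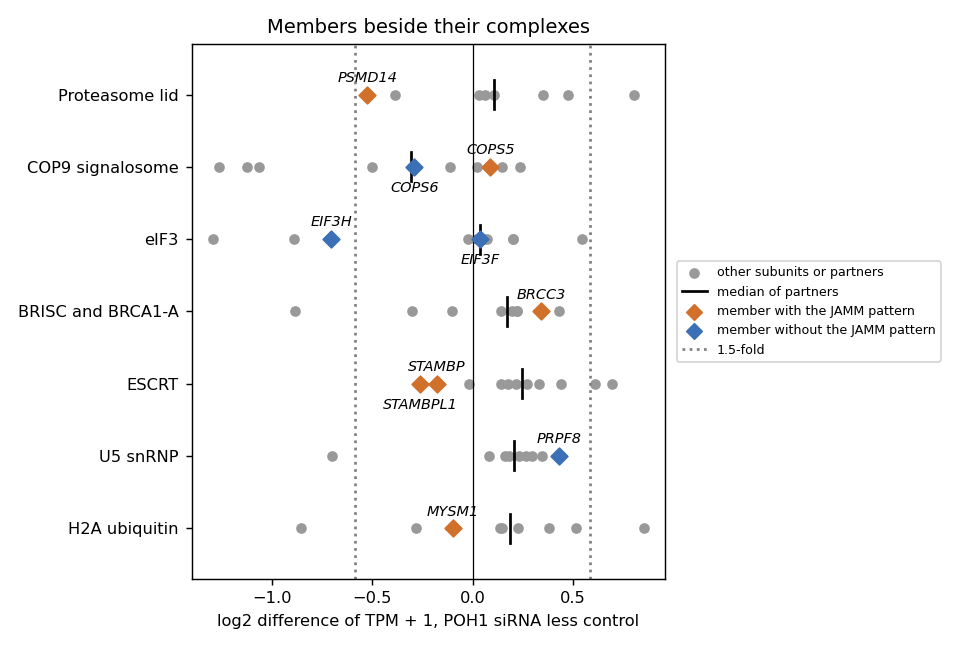
Log2 difference of TPM + 1 (POH1 siRNA less control, 1 library each) for the members as diamonds and for the other genes of their complexes as grey points, with a bar at the partners' median and dotted lines at 1.5-fold. PSMD14 lies left of all other lid genes shown (PSMD7 is not), EIF3H lies beside EIF3M and EIF3E, and COPS4, COPS8 and COPS7A lie left of both COP9 members.

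PRPF8, a core protein of the U5 particle of the spliceosome, had the highest difference of the members. Its level was 95.97 TPM with the control siRNA and 130 TPM with the POH1 siRNA, 1.35-fold higher with a log2 difference of 0.43. Of all genes, 19.2% were at or above this difference. Of 8 partner genes in U5, 7 were above 0, beside 61.2% of all genes, and their median was 0.21 (0.071 when scaled to a median ratio of 1). None of the 8 reached 1.5-fold higher and 1 reached 1.5-fold lower. SNRNP200, the helicase that PRPF8 regulates, was at 185 and 236 TPM and TXNL4A at 70.3 and 86.4 TPM. The lower gene was SNRNP40, 1.63-fold lower (104 and 63.5 TPM), and AAR2, which escorts PRPF8 during assembly, was at 47.6 and 50.5 TPM. The ratio of PRPF8 to SNRNP200 was 0.518 and 0.550.

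BRCC3 came next to PRPF8 in the order of differences. Its level was 6.19 TPM with the control siRNA and 8.12 TPM with the POH1 siRNA, 1.31-fold higher with a log2 difference of 0.34, and 26.8% of all genes were at or above it. Its MPN scaffold in BRISC, ABRAXAS2, was at 7.63 and 10.6 TPM, a log2 difference of 0.43. ABRAXAS1, the scaffold in BRCA1-A, was at 0.991 and 1.32 TPM. Of the 8 partner genes 1 was lower, none was higher and 7 lay within 1.5-fold (median 0.17). The lower one was BABAM2, a subunit of both complexes, 1.87-fold lower (66.5 and 35.6 TPM). BABAM2 shares same-strand exon sequence with MRPL33, and the sum of both was 246 and 141 TPM, a log2 difference of -0.80. ABRAXAS1 overlaps MRPS18C on the other strand, at 27.5 and 16.2 TPM, and the same limit holds for COPS7B with PDE6D (75.8 and 65.6 TPM) and TXNL4A with HSBP1L1 (84.01 and 82.4 TPM): without strand, their reads cannot be told apart. UIMC1, which guides BRCA1-A to ubiquitin at DNA breaks, was at 16.3 and 13.04 TPM. MPND, the only gene besides the members with the narrower JAMM pattern, was at 13.8 and 14.8 TPM.

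The pair of endosomal enzymes lay slightly below the control as deposited, but after GC adjustment STAMBPL1 was at 0.11 and STAMBP at -0.045. STAMBP was at 18.9 TPM with the control siRNA and 16.6 TPM with the POH1 siRNA, a log2 difference of -0.18. STAMBPL1 was at 6.34 and 5.13 TPM, a log2 difference of -0.26. Their ratio was 2.99 and 3.24, so the level of one relative to the other differed little. Of 10 ESCRT and associated genes, 2 were higher, none was lower and 8 lay within 1.5-fold, with a median of 0.24. Among all genes, 10.2% were higher and 8.88% lower. CHMP1A, an ESCRT-III gene, was 1.63-fold higher (61.4 and 100.2 TPM), and PTPN23 was 1.55-fold higher (22.4 and 34.8 TPM). The lowest differences were those of STAM2 (4.90 and 4.23 TPM) and STAM (9.58 and 9.46 TPM), the adaptors that recruit STAMBP. STAMBP and STAMBPL1 both lay below all 10 of these genes, STAMBP by little (-0.179 beside -0.176 for STAM2).

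MYSM1 was the lowest member in both libraries, at 3.001 and 2.74 TPM, a log2 difference of -0.098. At this level the pseudocount of 1 makes the log2 difference smaller than that of the TPM values, which was -0.13. After GC adjustment MYSM1 was at 0.27, but that adjustment was set by genes averaging at least 5 TPM and may move it too far. The comparison list held 8 other genes that add or remove ubiquitin on the same histone. Of these, 1 was higher, 1 was lower and 6 were within 1.5-fold, with a median of 0.19. BMI1, a subunit of the polycomb ligase, was 1.85-fold higher (19.7 and 36.4 TPM), and the deubiquitinase gene BAP1 was at 49.1 and 70.6 TPM. USP16, which removes the same mark, was 1.97-fold lower (9.79 and 4.96 TPM), and USP3 was at 11.5 and 9.27 TPM. BMI1 shares exons with the read-through gene COMMD3-BMI1, which was listed at 0 in both libraries.

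**Figure D3:**
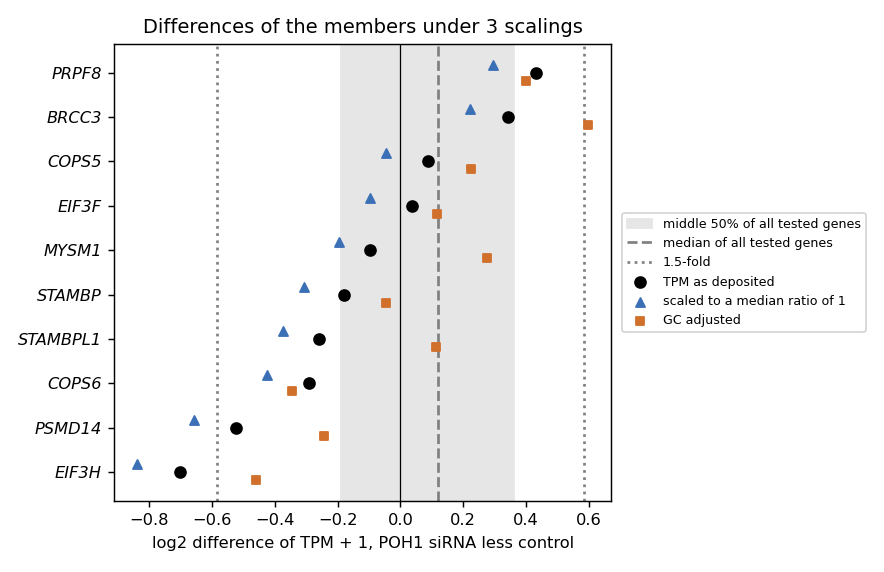
Log2 difference of TPM + 1 (POH1 siRNA less control) of each member as deposited (circles), scaled to a median ratio of 1 (triangles) and adjusted for GC content (squares), with the range between the quartiles of all tested genes shaded and dotted lines at 1.5-fold. EIF3H and PSMD14 have the lowest values as deposited (-0.70 and -0.52), and after GC adjustment they are at -0.46 and -0.24.

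The differences across the table moved with the GC content of the transcripts, and the members differ in it. Of genes averaging at least 5 TPM, 22.7% of those above 40% and up to 45% GC were at least 1.5-fold lower, against 4.38% of those above 50% and up to 55%. The median GC content was 44.4% for PSMD14, 45.7% for EIF3H, 36.9% for MYSM1, 52.5% for PRPF8 and 53.5% for COPS6. From each difference the running median over GC content was subtracted, and the median difference of genes averaging at least 5 TPM was added back. PSMD14 was then at -0.24, EIF3H at -0.46, COPS6 at -0.35, PRPF8 at 0.40 and BRCC3 at 0.60. The median of all genes was 0.15 on this scale, and counts at 1.5-fold depend on the median added back. On that scale no member was lower and 1, BRCC3, was higher by 1.5-fold, beside 5.19% and 12.6% of all genes. COPS4 (-0.89), COPS7A (-1.11), COPS8 (-0.77) and EIF3E (-0.88) were lower by 1.5-fold on that scale too, as was BABAM2 (-0.75), and PSMD11 (0.94) and BMI1 (1.29) were still higher. EIF3M (-0.51), SNRNP40 (-0.45) and USP16 (-0.47) were no longer lower, and CHMP1A (0.52) and PTPN23 (0.43) no longer higher. EIF3J (0.92), ABRAXAS2 (0.83) and ABRAXAS1 (0.61) were higher by 1.5-fold on that scale but not as deposited. So were CHMP1B (0.73) and RNF2 (0.59), named after their values were seen. The running median was set by genes averaging at least 5 TPM, whereas ABRAXAS1, RNF2, MYSM1 and COPS2 averaged less. At such levels the pseudocount shrinks the differences, so the full adjustment may move these genes too far. In TPM, ABRAXAS1 was 1.33-fold and RNF2 1.23-fold higher. Among the 281 genes within 2-fold of the mean TPM of COPS6 and within 2.5 percentage points of its GC content, 8.54% were at or below its difference. For PSMD14 this share was 23.5% of 588 genes and for EIF3H 20.7% of 169 genes, and for BRCC3 16.5% of 1085 genes were at or above its difference.

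**Figure D4:**
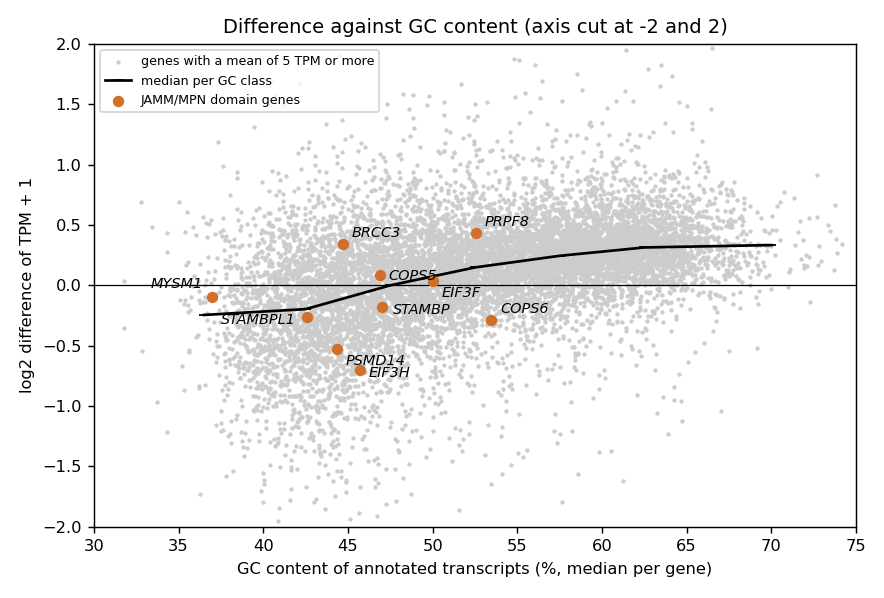
Log2 difference of TPM + 1 (POH1 siRNA less control) against the GC content of each gene's annotated transcripts in percent, with the members in orange over all genes averaging at least 5 TPM in grey and the median per GC class as a line. PSMD14 and EIF3H lie below the line at 44.4% and 45.7% GC, COPS6 lies below it at 53.5%, and BRCC3 lies above it at 44.7%.

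The libraries carried the marks of the named line. The epithelial genes EPCAM, KRT8, KRT18 and CDH1 ran from 111 to 517 TPM in the control library and from 129 to 556 TPM in the POH1 siRNA library. KLK2 and KLK3 were listed at 0 in both. Of 8 immune, endothelial and fibroblast markers, 3 averaged at least 1 TPM (CD68, COL1A1 and PECAM1), and the sum of all 8 was 80.3 and 120 TPM. CD3E was listed at 0 in both libraries and PTPRC at 0 and 0.0568 TPM. The part of these markers in the differences above was not tested. In bulk RNA, fewer cells of a type and less RNA per cell cannot be told apart.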

How the data were processed

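RNA sequencing values of 2 PC3 libraries were used, 1 per group. The submitters' processing notes name CASAVA, HISAT2 and the build hg19; their versions, the annotation, the quantifier and strand use are not stated there. The authors deposited TPM per gene, scaled to a fixed total (column sums 999955 and 999968). TPM keeps no depth, so no counting interval is given. No test or p-value was computed.

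Symbols were joined by Ensembl identifier (57392 of 58174 identifiers were in the name table). GENCODE release 29, on GRCh38, gave GC content (99.8% of tested genes), overlaps and coding sequences (the principal transcript, otherwise the longest), and no coordinates are printed. Differences used a pseudocount of 1 and genes averaging at least 1 TPM. GC adjustment subtracted a running median over 501 genes of at least 5 TPM and added back the median difference of all genes at that level. Calculations ran in Python 3.11.15 with pandas 2.3.3 and were tested on simulated data.

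The members and gene lists were chosen with earlier results of these data known. Named were all members, the 2 highest and 2 lowest genes of each partner list, other genes of the MPN family and the 5 genes nearest to PSMD14; others are said to be named after their values were seen. Alternatives were pseudocounts of 0.1 and 5, no filter or one at 5 TPM, scaling by a trimmed mean or to a median ratio of 1, TPM recomputed without the 50 most abundant and the mitochondrial genes, GC adjustment, and adding named pseudogenes. One marker gene and 1 coding stretch are not reported here.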

Additional observations from a re-analysis of the deposited data

How the results depend on the processing

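No paired analysis was possible because each group held 1 library. Of 154 values recomputed under the alternatives, 131 kept their sign and their side of 1.5-fold, or, for counts, stayed within 1.5 times; for the others the cause was not tested beyond the construction of each setting. Scaling to a median ratio of 1 put PSMD14 at -0.66, COPS5 at -0.047 and EIF3F at -0.099. It left 2 members lower, beside 12.3% of all genes. The lid partners' median became -0.031 and that of eIF3 -0.097. With a trimmed mean PSMD14 was at -0.65, COPS5 at -0.035 and EIF3F at -0.087, with 2 members lower. The lid and eIF3 partners' medians were then -0.019 and -0.085. With TPM recomputed without mitochondrial and the 50 most abundant genes, PSMD14 was at -0.60 and EIF3F at -0.033. In that setting 2 members were lower and the eIF3 partners' median was -0.032. For the trimmed mean and the recomputed TPM the share of all genes is not given. GC adjustment put EIF3H at -0.46, BRCC3 at 0.60, STAMBPL1 at 0.11 and MYSM1, which averaged below 5 TPM, at 0.27. It left 0 members lower and 1 higher, beside 5.19% and 12.6% of all genes, with a members' median of 0.11. PSMD14, EIF3H, COPS6 and STAMBP stayed below 0, and PRPF8 and BRCC3 above 0, under every alternative run. With depth unknown, the precision of low genes such as MYSM1 and STAMBPL1 cannot be given.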
